A study of Bubalus bubalis with 6 samples.

Results

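DNA damage response and repair genes were examined in muscle stem cells (MuSCs) of the water buffalo (Bubalus bubalis) that were either proliferating or differentiating. A fixed list of 52 gene symbols was looked up in the gene table, which lists 24616 genes. The table holds 51 of the symbols, and FANCM was not analysed here. All 51 listed genes were among the 15576 genes tested.

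The study compared 3 samples of MuSCs in growth medium (GM samples, the proliferation phase) with 3 samples in differentiation medium (DM samples). The cells were primary cultures from fetal longissimus muscle, freed with collagenase and trypsin, and no genotype or genetic change is given for either group. GM samples were kept in high-glucose DMEM with fetal bovine serum, and DM samples were moved near confluence to DMEM with a low share of horse serum. The labels give neither the day of harvest nor whether the 3 samples of a group came from separate cultures or animals. The p-values thus set the group difference against the spread between these samples, which may not cover that between animals. Polyadenylated RNA was sequenced, and the authors deposited raw read counts and RPKM (reads scaled by gene length and by sequencing depth). Between 35615864 and 40305237 reads per sample were counted on genes.

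Cells repair DNA by several routes that are chosen by the lesion and by the phase of the cell cycle. Homologous recombination and the Fanconi anaemia pathway use a sister chromatid or act at replication forks, and many of their genes are transcribed mainly in dividing cells. End joining needs no template and works in cells that have left the cycle. Checkpoint kinases stop the cycle while damage remains, and a stress response switches on genes for arrest and defence. Myoblasts leave the cell cycle before they fuse into myotubes.

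At an adjusted p under 0.05, 38 of the 51 genes fell from GM to DM samples, while 5 of the 6 stress response genes rose. A gene was called when its log2 fold change (DM over GM) was beyond 1 in either direction with an adjusted p under 0.05 in edgeR's quasi-likelihood test over all tested genes. Of the 51 genes, 17 were called lower and 4 were called higher. All 4 called higher were among the 6 stress response genes, and the 17 called lower were among the other 45. Of all tested genes, 10.3% were called lower, 15.0% were called higher and 25.3% were called in either direction. Without a minimum fold change, 38 of the 51 fell and 7 rose at an adjusted p under 0.05, and 6 did not pass. The shares of all tested genes under that rule were 31.4% lower and 31.6% higher. No GM sample overlapped the range of the DM samples in 45 of the 51, beside 68.8% of all tested genes. The median log2 fold change of the 51 was -0.73, and that of all tested genes was 0.03.

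**Figure D1:**
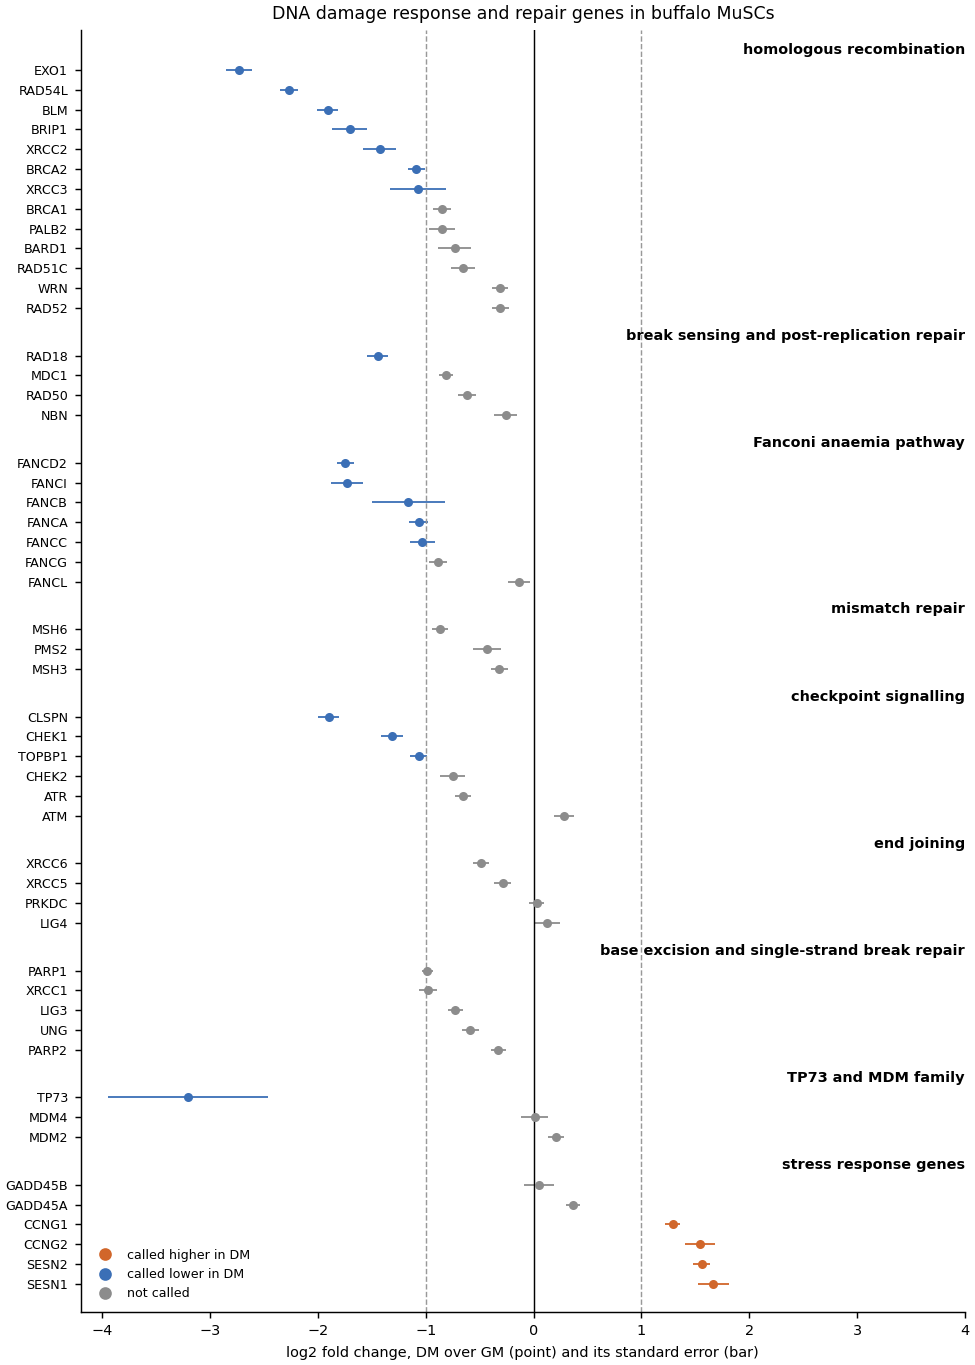
Log2 fold change, DM over GM, of each of the 51 genes, grouped by role, with bars of 1 standard error on either side, dashed lines at -1 and 1 and colors for called genes. The genes of homologous recombination all lie below 0, and the 4 genes called higher (SESN1, SESN2, CCNG2 and CCNG1) all belong to the stress response genes.

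DM replicate 3 stood apart from the other DM samples on the second principal component of all genes, which held 8.79% of the variance beside 80.5% for the component that separates GM from DM. Among the 51 genes it was the highest DM sample in 16, the lowest in 15 and between the others in 20. Without it, 20 of the 51 were called, 16 lower and 4 higher. FANCB and TOPBP1 were lost and XRCC1 was gained.

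Markers of other properties of the cells moved with the groups. All 13 proliferation markers were called lower. Their median log2 fold change was -2.30, and their summed level was 3211 to 3264 CPM (counts scaled to a common library size with TMM factors) over the GM samples and 715 to 798 CPM over the DM samples. TP73 and EXO1 were the 2 of the 51 genes with a log2 fold change below that median. Of 11 listed myogenic markers, 6 were called higher and MYF5, a factor of early myoblasts, was called lower. The fusion-stage factor MYOG had a log2 fold change of 1.66, PAX7, which marks muscle stem cells, fell by 0.92 on the log2 scale, and DES, a muscle filament gene, was at -0.15 and did not pass the test. Fibroblast markers were present in both groups, and 7 of the 9 tested were called higher. Their summed level lay between 35405 and 36157 CPM in the GM samples and between 97757 and 123693 CPM in the DM samples. The collagen genes COL1A1, COL1A2 and COL3A1 made up most of this sum in both groups. PDGFRA rose by 0.58 on the log2 scale and was not called. TCF4, which rose by 0.23 and was not called, is in this list and in its sum by symbol only. The fibroblast marker known as Tcf4 is another gene, TCF7L2, which is not reported here. TCF21 had 0, 1 and 7 counts in the GM samples and 0 in each DM sample, and it was not tested. Summed adipocyte markers (6.75 to 8.10 CPM in GM, 7.19 to 8.65 CPM in DM), endothelial markers (4.04 to 4.78 and 5.15 to 6.13 CPM) and immune markers (5.96 to 7.62 and 7.03 to 13.3 CPM) were low. Single markers moved both ways beneath these sums. Of 5 tested adipocyte markers 2 were called higher and 1 lower, and of 6 endothelial markers 1 was called higher and 3 lower. Of the 7 immune markers, CD14 was called higher (34 to 54 counts per GM sample, 177 to 335 per DM sample), CD68 was called lower (175 to 237 counts, then 76 to 105), CSF1R did not pass the test, and PTPRC, CD3E, CD79A and LYZ had at most 2 counts in any sample. The part of these marker changes in the results for the repair genes was not tested. In bulk RNA, fewer cells of a type and less RNA per cell cannot be told apart.

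All 13 genes of homologous recombination fell, 7 of them past the fold limit, beside 10.3% of all tested genes called lower. The median log2 fold change of the 13 was -1.07. Their summed level was 385 ± 12.3 CPM in GM samples and 179 ± 8.57 CPM in DM samples (SD, n = 3 each). The largest fall among them was that of EXO1, an exonuclease that resects DNA ends. EXO1 was at 18.8, 17.5 and 18.9 CPM in GM samples and at 2.66, 3.06 and 2.57 CPM in DM samples. The log2 fold change was -2.73 ± 0.12 (SE, adjusted p = 2.57e-08), a 6.65-fold lower level. RAD54L is a motor protein that helps a broken strand invade its template. It was at 66.3, 66.3 and 66.6 CPM in GM samples and at 14.7, 12.1 and 14.6 CPM in DM samples (log2 fold change -2.27 ± 0.087, adjusted p = 1.06e-08). The GM samples of RAD54L had an SD of 0.195 CPM, and every DM sample was below them.

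Both recombination helicases with a called change moved the same way. BLM, the helicase lost in Bloom syndrome, was at 34.6, 33.7 and 34.0 CPM in GM samples and at 8.17, 10.3 and 8.70 CPM in DM samples (log2 fold change -1.91 ± 0.098). BRIP1, a helicase that binds BRCA1, was at 13.0, 11.1 and 10.9 CPM in GM samples and at 3.11, 4.40 and 3.22 CPM in DM samples (-1.71 ± 0.16). WRN, a helicase related to BLM, showed a smaller fall of 0.31 ± 0.074 on the log2 scale (adjusted p = 0.00387).

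The mediators of strand exchange fell by different amounts. BRCA2, which prepares single-stranded DNA for strand exchange, was at 78.3, 68.8 and 76.9 CPM in GM samples and at 32.5, 37.5 and 35.4 CPM in DM samples (-1.09 ± 0.081). XRCC2, a further mediator, was at 9.45, 11.6 and 9.05 CPM in GM samples and at 3.38, 4.24 and 3.57 CPM in DM samples (-1.43 ± 0.16). No DM sample of either gene reached the lowest GM sample. XRCC3, the partner of RAD51C, was at 4.15, 3.00 and 3.61 CPM in GM samples and at 1.33, 1.42 and 2.35 CPM in DM samples (-1.07 ± 0.26, adjusted p = 0.00421). This low gene rested on 45 to 172 counts per sample, and its log2 fold change was -0.96 without GM replicate 1, -0.92 without DM replicate 1 and -0.94 without DM replicate 2, inside the fold limit each time. RAD51C itself, fell by 0.66 ± 0.11 on the log2 scale.

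BRCA1 and BARD1, which form a ubiquitin ligase at breaks, both fell without passing the fold limit. BRCA1 was at 63.1, 59.0 and 58.9 CPM in GM samples and at 32.7, 36.9 and 30.8 CPM in DM samples (-0.85 ± 0.081, adjusted p = 5.49e-06). BARD1 was at -0.73 ± 0.15, and PALB2, which links BRCA1 with BRCA2, was at -0.85 ± 0.12. RAD52, which anneals single strands, had the smallest fitted fall of the 13 together with WRN, at -0.31 ± 0.078 (adjusted p = 0.0054).

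**Figure D2:**
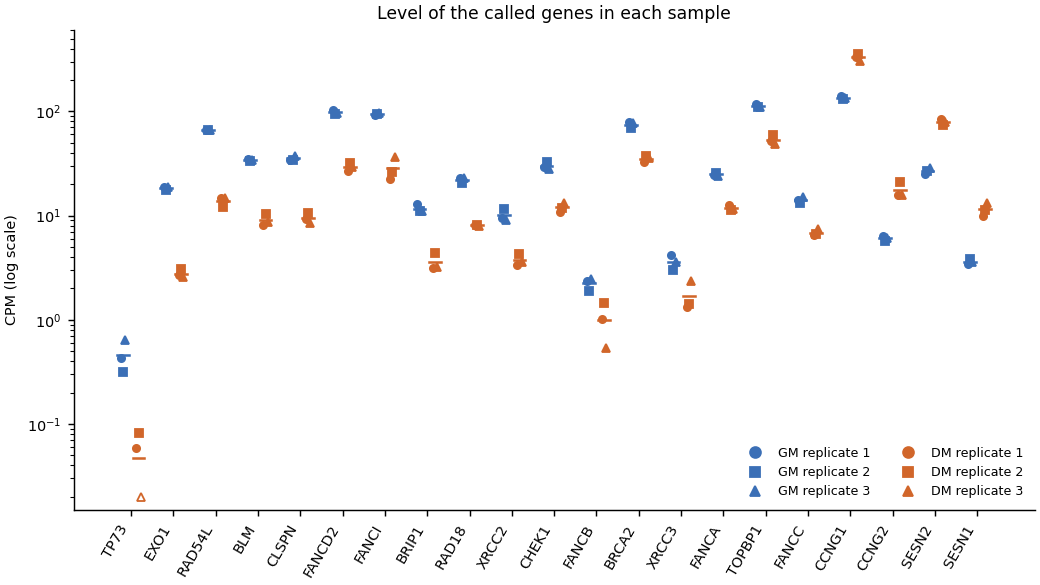
CPM of the 21 called genes in each of the 6 samples, on a log axis, with GM samples in blue, DM samples in orange and a dash at the mean of each group. The groups are apart in every gene shown, but the genes were picked by their call, so this is no further evidence. The groups did not overlap in 68.8% of all tested genes. The hollow triangle at the foot of the axis marks DM replicate 3 of TP73, which had 0 counts.

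Among the genes that sense breaks or act behind the fork, RAD18 was called lower. RAD18, a ubiquitin ligase that marks PCNA at stalled forks, was at 22.8, 20.3 and 23.2 CPM in GM samples and at 8.17, 8.20 and 7.95 CPM in DM samples (-1.45 ± 0.096, adjusted p = 3.78e-07). The DM samples were nearly equal, with an SD of 0.139 CPM. MDC1, the scaffold that binds phosphorylated H2AX beside a break, was at 91.8, 92.9 and 90.1 CPM in GM samples and at 53.6, 49.3 and 53.3 CPM in DM samples (-0.81 ± 0.064). RAD50 and NBN belong to the MRE11 complex that detects broken ends. RAD50 was at 60.7, 55.8 and 57.7 CPM in GM samples and at 33.9, 39.0 and 40.5 CPM in DM samples (-0.62 ± 0.081). NBN did not pass the test (-0.26 ± 0.11, adjusted p = 0.0549), and its groups overlapped. With DESeq2 its adjusted p was 0.0401, and without DM replicate 2, its highest DM sample, it was 0.00416.

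The Fanconi anaemia pathway repairs crosslinks between DNA strands. A core complex attaches ubiquitin to the FANCD2 and FANCI clamp. Of its 7 listed genes, 5 were called lower, and the summed level was 286 ± 4.41 CPM in GM samples and 111 ± 7.73 CPM in DM samples. FANCD2 was at 102, 95.1 and 96.8 CPM in GM samples and at 26.6, 31.8 and 29.3 CPM in DM samples (-1.75 ± 0.079, adjusted p = 2.94e-08). FANCI was at 92.8, 93.9 and 97.3 CPM in GM samples and at 22.4, 26.2 and 36.7 CPM in DM samples (-1.73 ± 0.15). The DM samples of both clamp genes lay far below the GM samples, and DM replicate 3 stood above the other DM samples in FANCI. FANCI shares 768 bases of its span with POLG on the opposite strand, which had 5359 to 6372 counts per GM sample and 2661 to 3599 per DM sample. The strand setting of the counting is not stated, so reads of the overlap cannot be told apart.

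Of the core complex, FANCA was at 24.7, 25.9 and 24.0 CPM in GM samples and at 12.7, 11.3 and 11.6 CPM in DM samples (-1.07 ± 0.088). It overlaps ZNF276 on the opposite strand over 160 bases, with the same limit on strand. FANCC was at 14.0, 13.1 and 14.9 CPM in GM samples and at 6.54, 6.61 and 7.38 CPM in DM samples (-1.03 ± 0.11), just past the fold limit. It lay inside that limit without GM replicate 3 (-0.98), DM replicate 1 (-0.99) or DM replicate 2 (-0.99). FANCB was the lowest gene of the complex, at 2.36, 1.87 and 2.48 CPM in GM samples and at 1.01, 1.45 and 0.540 CPM in DM samples (-1.16 ± 0.34, adjusted p = 0.0114). Without DM replicate 3, which was the lowest sample, its log2 fold change was -0.85. FANCG fell by 0.89 ± 0.081 on the log2 scale. FANCL, the subunit that carries the ubiquitin ligase activity, did not pass the test (-0.13 ± 0.10, adjusted p = 0.288, 95% interval from -0.34 to 0.07).

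No mismatch repair gene passed the fold limit, and all 3 fell. MSH6, which reads base mismatches, was at 99.8, 93.6 and 101 CPM in GM samples and at 49.7, 53.8 and 57.9 CPM in DM samples (-0.87 ± 0.073). MSH3, which reads loops, was at 34.2, 34.0 and 33.8 CPM in GM samples and at 24.5, 29.7 and 27.6 CPM in DM samples (-0.32 ± 0.082). Both genes were lower in every DM sample, with the fall of MSH6 the larger by fitted value. PMS2, an endonuclease of mismatch repair, was at -0.44 ± 0.13 (adjusted p = 0.0126, and 0.0611 without GM replicate 2).

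Of the 6 checkpoint genes, 5 fell and ATM rose. ATR answers stalled forks through TOPBP1, CLSPN and CHEK1, and ATM answers breaks through CHEK2. CLSPN, the adaptor that brings CHEK1 to ATR, was at 34.1, 34.5 and 37.3 CPM in GM samples and at 9.18, 10.7 and 8.51 CPM in DM samples (-1.90 ± 0.099, adjusted p = 6.80e-08). CHEK1 was at 29.2, 32.4 and 27.9 CPM in GM samples and at 10.8, 11.8 and 13.3 CPM in DM samples (-1.32 ± 0.10). TOPBP1, which activates ATR, was at 117, 109 and 110 CPM in GM samples and at 51.9, 59.6 and 48.9 CPM in DM samples (-1.07 ± 0.081). These 3 genes were past the fold limit, although TOPBP1 lay just inside it without DM replicate 3, at -1.0 when rounded. ATR itself fell by 0.65 ± 0.072 on the log2 scale, and CHEK2 fell by 0.75 ± 0.12.

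ATM was the exception in this group. It was at 47.0, 36.7 and 44.0 CPM in GM samples and at 49.4, 55.0 and 50.7 CPM in DM samples. The log2 fold change was 0.28 ± 0.095 (adjusted p = 0.0245), so ATM rose without reaching the fold limit. GM replicate 2 was the lowest sample, and without it the log2 fold change was 0.18 (adjusted p = 0.0891). The adjusted p was 0.0504 without GM replicate 3 and 0.0676 without DM replicate 2. When libraries were scaled by size without TMM, the adjusted p was 0.133.

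Among the repair roles of the 51 genes, end joining had the median log2 fold change nearest to 0, at -0.13, and 2 of its 4 genes did not pass the test. PRKDC, the catalytic subunit of DNA-dependent protein kinase, was at 102, 96.6 and 97.7 CPM in GM samples and at 100, 93.3 and 108 CPM in DM samples. Its groups overlapped, and its log2 fold change was 0.03 ± 0.069 (interval from -0.11 to 0.16, adjusted p = 0.751). LIG4, the ligase of this route, was at 0.12 ± 0.13 (interval from -0.12 to 0.37, adjusted p = 0.409). The Ku subunits, which cap the broken ends, both fell by small amounts. XRCC5 was at 39.8, 37.4 and 39.1 CPM in GM samples and at 28.9, 32.9 and 33.4 CPM in DM samples (-0.29 ± 0.077, adjusted p = 0.00759), and XRCC6 was at -0.49 ± 0.076. The summed level of the 4 genes was 173 to 183 CPM over the GM samples and 162 to 173 CPM over the DM samples.

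**Figure D3:**
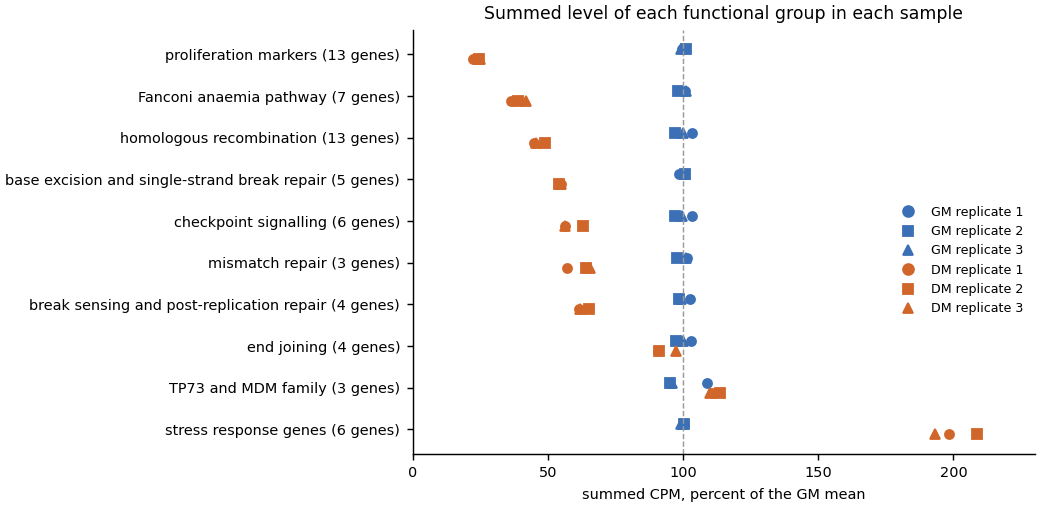
Summed CPM of the genes of each role in each of the 3 GM and 3 DM samples, as percent of the mean of the GM samples (dashed line), with the proliferation markers on top. The Fanconi anaemia genes go from a mean of 286 to 111 CPM, end joining genes from 178 to 166 CPM, and the stress response genes from 296 to 592 CPM.

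The 5 genes of base excision and single-strand break repair all fell, and none passed the fold limit. PARP1, which makes poly(ADP-ribose) at nicks, had the highest level of the 51 genes in GM samples. It was at 452, 460 and 464 CPM in GM samples and at 232, 229 and 234 CPM in DM samples (-0.98 ± 0.055, adjusted p = 1.06e-07). The samples of each group were close together, and PARP1 made up 18.7% ± 0.444 of the summed CPM of the 51 genes in GM samples and 12.7% ± 0.442 in DM samples (SD, n = 3 each). XRCC1, the scaffold of nick repair, was also at -0.98 (SE 0.082). With library size alone both were past the limit, at -1.08 for PARP1 and -1.07 for XRCC1. PARP2 was at 57.1, 52.1 and 56.8 CPM in GM samples and at 45.4, 45.5 and 41.5 CPM in DM samples (-0.33 ± 0.072). LIG3, the ligase bound to XRCC1, was at -0.73 ± 0.069, and UNG, which removes uracil, was at -0.59 ± 0.076.

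Of the group of TP73, MDM2 and MDM4, TP73 was called lower and MDM2 rose slightly. TP73, a transcription factor of the damage response, had 18, 13 and 24 counts in GM samples and 2, 3 and 0 counts in DM samples. Its summed counts of 55 and 5 gave a 9.76-fold lower level in DM samples, with a 95% exact interval of 3.94 to 31.3 that covers counting error only. TP73 was the lowest of the 51 genes, and its fitted log2 fold change of -3.21 had a standard error of 0.74 (adjusted p = 0.00322). MDM2, a ubiquitin ligase that restrains the damage response, was at 39.3, 35.0 and 34.2 CPM in GM samples and at 40.8, 43.2 and 41.1 CPM in DM samples (0.21 ± 0.076, adjusted p = 0.0354). It did not pass the test with library size alone (adjusted p = 0.259), nor without GM replicate 2 (0.107), GM replicate 3 (0.143) or DM replicate 2 (0.0725). MDM4, a relative of MDM2, was at 9.89, 8.10 and 8.97 CPM in GM samples and at 9.59, 8.50 and 9.05 CPM in DM samples. Its groups overlapped, and its log2 fold change was 0.01 ± 0.12 (interval from -0.23 to 0.25).

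The stress response genes were the only role of the 51 genes in which any was called higher. Their summed level was 296 ± 1.81 CPM in GM samples and 592 ± 23.7 CPM in DM samples. The sestrins SESN1 and SESN2 are stress-induced proteins that restrain TOR signalling. SESN1 was at 3.42, 3.82 and 3.61 CPM in GM samples and at 10.01, 11.4 and 13.1 CPM in DM samples (1.67 ± 0.14, adjusted p = 2.71e-06). SESN2 was at 25.2, 27.0 and 28.4 CPM in GM samples and at 84.4, 73.5 and 79.8 CPM in DM samples (1.56 ± 0.079, adjusted p = 5.74e-08). Every DM sample of both sestrins was above every GM sample.

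Both G-type cyclins rose as well. CCNG1, a damage-induced cyclin, was at 140, 131 and 133 CPM in GM samples and at 332, 353 and 304 CPM in DM samples (1.29 ± 0.070, adjusted p = 9.12e-08). CCNG2, an atypical cyclin associated with arrest, was at 6.34, 5.65 and 6.09 CPM in GM samples and at 15.8, 21.0 and 15.9 CPM in DM samples (1.54 ± 0.14). GADD45A, a damage-induced growth arrest gene, was at 97.6, 102 and 97.0 CPM in GM samples and at 122, 135 and 125 CPM in DM samples. It rose by 0.36 ± 0.063 on the log2 scale (adjusted p = 0.000489), inside the fold limit. GADD45B did not pass the test (0.05 ± 0.14, adjusted p = 0.769), and its DM replicate 3 was at 33.9 CPM beside 23.2 and 24.0 CPM in the other DM samples.

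Levels per length, as deposited RPKM, changed the order of the genes. The median RPKM of the 51 genes was 11.2 in GM samples and 6.0 in DM samples. In GM samples the highest genes were PARP1 at 132 ± 1.54 RPKM, GADD45A at 79.4 RPKM and CCNG1 at 60.2 RPKM. In DM samples CCNG1 was first at 138 ± 11.5 RPKM, GADD45A was at 95.5 RPKM and PARP1 followed at 62.5 RPKM. RAD54L went from rank 5 to rank 30 and SESN2 from rank 20 to rank 4. A mean of at least 1 RPKM was reached by 49 of the 51 genes in GM samples and by 47 in DM samples. Apart from TP73, no gene had fewer than 20 counts in any sample.

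**Figure D4:**
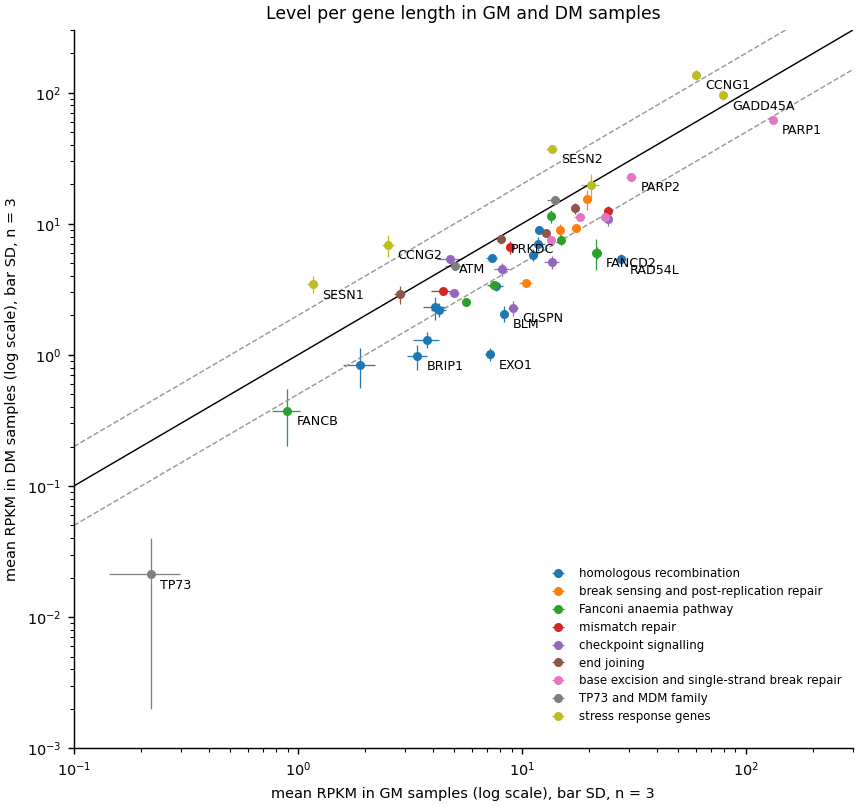
Mean RPKM of each gene in DM samples against GM samples, on log axes, with bars of 1 SD (n = 3 each), a color for each role, a solid line of equal level and dashed lines at a log2 difference of 1 either way. CCNG1 and SESN2 lie above the line and PARP1, RAD54L and EXO1 below it, while PRKDC lies near it. RPKM was scaled without TMM factors, unlike the fitted fold changes.

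Ratios of RPKM between partner genes were compared for 11 pairs with an exact two-sided permutation test, whose smallest possible p with 3 samples against 3 is 0.1. No pair could pass. The ratio of ATR to ATM was 1.05 over the GM samples and 0.55 over the DM samples, and that of CHEK1 to CHEK2 was 1.68 and 1.13. MSH6 to MSH3 went from 2.76 to 1.89, CCNG1 to CCNG2 from 23.8 to 20.1, and XRCC5 to XRCC6 from 1.35 to 1.54. The groups did not overlap in these 5 pairs (p = 0.1, adjusted p = 0.22 in each exact test). The groups overlapped in the other 6 pairs, among them FANCD2 to FANCI at 1.01 and 1.02 and BRCA1 to BARD1 at 2.76 and 2.55.

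**Figure D5:**
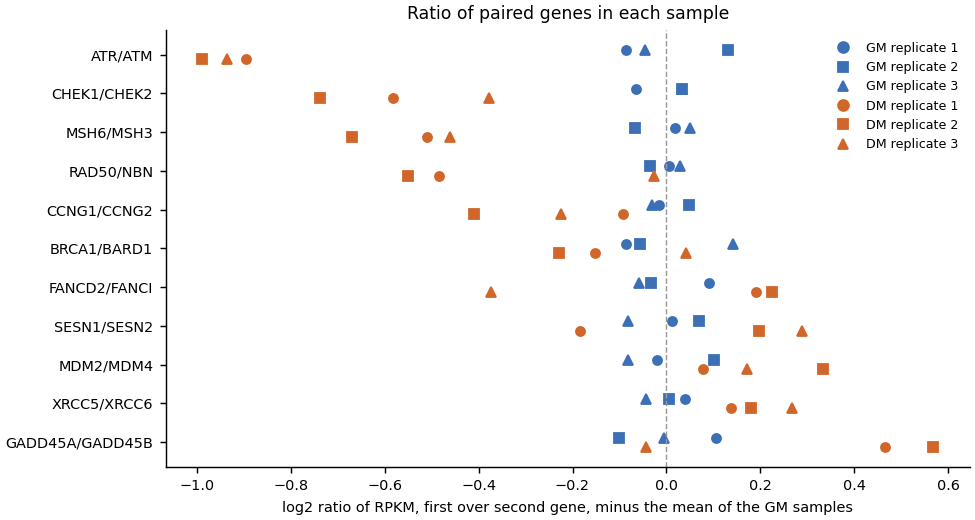
Log2 ratio of RPKM of 11 gene pairs in each sample, set to 0 at the mean of the GM samples. The DM samples lie left of all GM samples for ATR to ATM, CHEK1 to CHEK2, MSH6 to MSH3 and CCNG1 to CCNG2 and right of them for XRCC5 to XRCC6, and they overlap the GM samples in the other 6 pairs.

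The rest of the repair and stress response pathways was read from a list of 145 further genes, of which 124 were listed and 123 tested. Of these, 22 were called lower and 11 were called higher, with a median log2 fold change of -0.21. These are 17.9% called lower, beside 10.3% of all tested genes, and 8.94% called higher, beside 15.0%. In either direction 26.8% were called, near the 25.3% of all tested genes. By role, the medians of this list were -0.21 for end joining, -0.11 for base excision, -0.17 for break sensing and 0.08 for mismatch repair. End joining was thus not the role nearest to 0 here. The median was -0.26 for the Fanconi anaemia pathway, -0.62 for recombination and -1.18 for checkpoint signalling. Without a minimum fold change 54 fell, 33 rose and 36 did not pass. MRE11A, whose product binds RAD50 and NBN (-0.17 ± 0.079, adjusted p = 0.0909), and XRCC4, the partner of LIG4 (0.30 ± 0.16, adjusted p = 0.123), did not pass the test.

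The called genes with the largest changes in each role of that list went both ways. RECQL4 (-2.19 ± 0.16) and POLQ (-1.78 ± 0.15) led recombination, CDC25C (-2.05 ± 0.17) and TIMELESS (-1.95 ± 0.13) the checkpoint, and FEN1 (-2.35 ± 0.080) and NEIL3 (-2.00 ± 0.16) base excision. UBE2T, the ubiquitin-conjugating partner of FANCL, was at -1.15 ± 0.12, and ERCC2, a helicase of nucleotide excision repair, was at -1.25 ± 0.074. H2AFX, the histone that MDC1 reads, was at -1.32 ± 0.092. Called higher were REV3L, a translesion polymerase (1.24 ± 0.075), POLM, an end joining polymerase (2.54 ± 0.19), and CDKN2A, which encodes cell cycle inhibitors (1.32 ± 0.21). MSH4, a meiotic gene, was called higher (1.95 ± 0.75, adjusted p = 0.0432) on 1 to 28 counts per sample with overlapping groups. Of the 17 tested stress response genes of the list, 5 were called higher and 1 was called lower, and without a minimum fold change 10 rose, 3 fell and 4 did not pass. CDKN1A, which encodes the cyclin kinase inhibitor p21, was at 57.1, 44.0 and 59.7 CPM in GM samples and at 241, 264 and 292 CPM in DM samples (2.31 ± 0.12, adjusted p = 5.57e-08). EDA2R had 2 counts in all GM samples together and 74 in the DM samples, a ratio of 41.7 with a 95% exact counting interval of 11.1 to 351.

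All 51 genes have an entry in the mRNA table, and 7 have more than 1 transcript there, 15 in all. By the same rule 9 of the 15 were called, namely 3 of BRIP1 and 2 each of RAD18, SESN1 and SESN2, beside 25.6% of all tested mRNA transcripts. Transcripts of a gene share reads and are not separate evidence. Leaving PMS2 aside, none differed from its gene by more than 0.096 on the log2 scale. The PMS2 transcripts were at -0.43 and -0.57, the latter on 28 to 82 counts per sample with a standard error of 0.34.

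The 51 genes lie on 25 chromosomes by the coordinates in the table, which carry cattle identifiers and no build name. Of neighbours less than 2 megabases apart, FANCD2 (chromosome 22, 16783190 to 16832321) and RAD18 (chromosome 22, 17627573 to 17735891) were both called lower. FANCI (chromosome 21, 21137918 to 21198618) and BLM (chromosome 21, 22264540 to 22331807) were both called lower as well. In the other 3 such pairs, GADD45B with RAD50, BARD1 with XRCC5 and RAD51C with BRIP1, only BRIP1 was called. Of all 51 genes 17 were called lower, and a link between position and calls was not tested. EXO1 spans 35747266 to 35788726 on chromosome 16 and SESN2 spans 125698160 to 125714128 on chromosome 2.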

How the data were processed

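Polyadenylated RNA of 3 GM and 3 DM samples of buffalo MuSCs was sequenced. The authors aligned reads with HISAT2 per their methods and deposited raw read counts per gene and per transcript, without normalization. The deposited RPKM values equal these counts divided by the listed length and the summed counts of the sample. The methods name a buffalo genome, the tables carry cattle Ensembl identifiers, and the submitters' processing notes list Bowtie 0.12.2 and mouse builds, so the build is unsettled. The ncRNA table was not used here. The deposited lists of changed features hold the authors' log2 fold changes, p-values and q-values and were not used. No sample column was left unmapped.

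The quasi-likelihood test of edgeR 4.0.16 (glmQLFit, glmQLFTest, TMM; R 4.3.3) was run on counts of genes with at least 10 counts in total, with Benjamini-Hochberg adjustment over all 15576 tested genes. TMM factors were 1.03 to 1.04 (GM) and 0.948 to 0.983 (DM). Standard errors came from the F statistic, and intervals are 1.96 standard errors on either side. CPM used TMM-scaled library sizes. Transcripts were fitted in the same way over the mRNA table. Summaries used pandas 2.3.3, scipy 1.17.1 and numpy 2.4.6 under Python 3.11.15, and plots matplotlib 3.10.9.

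The 52 genes, their roles, the other lists and the tests were chosen with earlier results of these data known. Every listed gene could be named. Values in every sample were given for called genes and for the 2 of highest mean CPM in each role. From the wider pathway list, MRE11 (as MRE11A), XRCC4 and CDKN1A were named whatever their values, with the 2 called genes of largest change in each role. Some genes that this rule names, genes called lower among them, are not reported here. Markers were described as lists, and those named singly were picked after their values were seen. Samples were grouped by their titles. Alternatives were library size alone, DESeq2's size factors, DESeq2 1.42.0, other filters on low counts, library sizes without the 50 genes of highest mean count, a replicate block, a 1.5-fold null hypothesis (glmTreat), adjusted p alone, and omission of each sample. Promoter motifs were not analysed here.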

Additional observations from a re-analysis of the deposited data

How the results depend on the processing

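The 21 calls (17 lower, 4 higher) were the same genes with DESeq2, DESeq2's size factors, no filter, filterByExpr and the replicate block. Whether samples of the same number were paired is not given by the labels. Over all tested genes, deviations of same-numbered samples from their group means had correlations of -0.0076, -0.022 and -0.010. These values show no shared deviation by number and cannot settle how the samples were taken. With the replicate block 6 genes rose and 39 fell at an adjusted p under 0.05, with NBN gained among the falls (adjusted p = 0.0299) and MDM2 lost among the rises (0.0537). Library size alone called 23 genes, moved the median of the 51 to -0.83 and shifted the median of all genes by -0.097. Without the 50 genes of highest mean count in the library size, 20 were called and FANCC was lost. The test against a fold change of 1.5 called 28, losing FANCB. With no minimum fold change 45 were called (7 higher, 38 lower), beside 9813 of all genes and 87 of the other pathway genes, compared with 3936 and 33.

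On omission of single samples, 19 to 21 genes were called, of which 4 were higher each time and 15 to 17 were lower. The median of the 51 ran from -0.81 to -0.71, the calls among all genes from 3647 to 3995 and those among the other pathway genes from 32 to 35. Over these fits MDM4 reached up to 0.084, PRKDC 0.094 and GADD45B 0.16. The calls of XRCC3, FANCC, FANCB and TOPBP1 were lost in some of these fits. The sign of 3 uncalled genes turned. With library size alone MDM4 was at -0.089, PRKDC at -0.071 and GADD45B at -0.046. GADD45B was at -0.0088 without GM replicate 1 and at -0.14 without DM replicate 3, MDM4 at -0.060 without GM replicate 2 and at -0.026 without DM replicate 1, and PRKDC at -0.021 without DM replicate 3. The cause was not tested. Counts limit the precision of TP73, FANCB and XRCC3 most.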
